A study of Rattus norvegicus with 30 samples.

Results

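The acute phase proteins examined were 10 genes of the liver: A2m, Fgl1, Crp, Hp, Orm1, Lcn2, Serpina3n and the fibrinogen chains Fga, Fgb and Fgg. Members were the probe sets that the platform annotation ties to these gene symbols, 13 of 31042 probe sets tested, for 10 of 14217 genes that could be read. Where a gene had several probe sets, the one with the highest average signal stands for it and is called its representative. The other 3 probe sets, 1 of Fga and 2 of Fgb, are given beside them. RNA from 30 livers of Wistar/Han rats was measured on Affymetrix rat expression arrays, in 6 groups of 5 animals. Values are log2 RMA values, so a difference of 1 is a doubling of the measured signal.

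The exposed groups were male PBDE pups, female PBDE pups and adult male PBDE rats, and their references were male control pups, female control pups and adult male control rats. PBDE animals received DE71, a commercial mixture of polybrominated diphenyl ether flame retardants, at 50 mg/kg in corn oil by gavage. Controls received 0 mg/kg, and the dosing volume was 5 ml/kg. Exposure began in the womb: dams were gavaged 7 days a week, starting on gestation day 6 and ending on postnatal day 21. Pups were also dosed directly until day 21, and their livers were taken on postnatal day 22. Adults went on with dosing on 5 days a week after weaning, and their livers were taken at week 13. Pups each had a dam of their own, and adults of 1 dose group had different dams. Each array is therefore a separate animal, and 50 ng of its total RNA was labelled in 2 cycles.

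The acute phase response is the liver's programme of secreted proteins after injury or infection. Interleukin-6 acting through STAT3, interleukin-1 acting through NF-kappaB and C/EBP factors, and glucocorticoids drive it in hepatocytes. In the rat, alpha-2-macroglobulin, encoded by A2m, is a strongly inducible member, a broad protease inhibitor that is also made in quantity by the fetal and newborn liver. C-reactive protein is abundant in the plasma of healthy rats and rises little in inflammation in this species.

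Promoters were available for 7 of the 10 members, from RefSeq on the rat build GRCr8. A2m, Fgl1 and Hp have none here. The 250 bases before each start were searched on both strands for 3 motifs written with N for any base. These were CTGGGAA, the type II interleukin-6 response element of rat acute phase genes; TTCNNNGAA, the shape of a STAT site; and TTGCNNAA, a short form of a C/EBP site. CTGGGAA stood in 4 of the 7 members (Fgg, Fgb, Lcn2 and Serpina3n), against 9.56% of 33469 promoters. TTCNNNGAA stood in 3 (Serpina3n, Fgb and 1 of the 2 promoters of Fga), against 7.67%, and TTGCNNAA in 4 (Orm1, Lcn2, Fga and Fgb), against 9.22%. A match describes letters and no binding was measured. The sequences are 3 promoters with such a match and that of Crp, which held none of the 3 motifs. Any link between the motifs and the response to PBDE was not tested. Capitals mark CTGGGAA or its complement and TTCNNNGAA, which overlap in Serpina3n.
Serpina3n, chr6:129088142-129088391, GRCr8, plus strand: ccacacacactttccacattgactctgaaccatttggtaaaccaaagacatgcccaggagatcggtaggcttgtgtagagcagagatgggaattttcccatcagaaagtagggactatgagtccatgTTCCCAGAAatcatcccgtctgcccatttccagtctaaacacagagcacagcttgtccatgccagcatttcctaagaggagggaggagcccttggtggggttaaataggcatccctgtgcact
Fgb, chr2:170700876-170701125, GRCr8, minus strand: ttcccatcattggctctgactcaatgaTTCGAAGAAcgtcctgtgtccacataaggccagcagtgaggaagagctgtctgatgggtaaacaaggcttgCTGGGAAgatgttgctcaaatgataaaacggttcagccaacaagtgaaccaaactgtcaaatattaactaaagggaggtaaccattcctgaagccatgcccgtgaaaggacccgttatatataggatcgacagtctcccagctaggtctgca
Fga, chr2:170671919-170672168, GRCr8, plus strand: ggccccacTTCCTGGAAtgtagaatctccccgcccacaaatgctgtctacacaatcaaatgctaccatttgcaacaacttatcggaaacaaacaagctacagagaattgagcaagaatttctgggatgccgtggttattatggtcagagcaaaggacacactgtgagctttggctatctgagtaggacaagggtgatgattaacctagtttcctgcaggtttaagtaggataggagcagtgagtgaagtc
Crp, chr13:87693812-87694061, GRCr8, plus strand: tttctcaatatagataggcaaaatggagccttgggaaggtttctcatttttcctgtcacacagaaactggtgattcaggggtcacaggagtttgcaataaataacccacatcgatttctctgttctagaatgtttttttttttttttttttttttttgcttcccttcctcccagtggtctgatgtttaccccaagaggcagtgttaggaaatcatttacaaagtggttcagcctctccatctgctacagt

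Array medians lay between 5.72 and 5.77, and the highest value of the table was 15.46. The 7 hepatocyte markers averaged 13.99 to 14.26 over all arrays, and levels of Xist and Eif2s3y matched the labelled sex on all arrays. Cells of a type and RNA per cell cannot be told apart in such bulk samples. By the prefix of their names, the arrays were taken as a first batch (male PBDE, male control and female control pups) and a second (female PBDE pups and both adult groups). What the prefix stands for is not stated. In female pups, batch and dose cannot be told apart. Between male pups and adult males, batch and age cannot be told apart. Nor can batch and sex between male and female PBDE pups, and the sex by dose test also spans both batches. RNA integrity was read as the log2 signal at the 3' end of Gapdh minus that at its 5' end, which had the higher mean in PBDE livers of each pair of groups. It was 2.09 ± 0.65 in male PBDE pups, against 1.61 ± 0.33 in male control pups, 1.93 ± 0.30 in female PBDE pups against 1.26 ± 0.50 in female control pups, and 1.17 ± 0.62 in adult PBDE males against 0.62 ± 0.18 in adult control males (SD, n = 5 each). Exact two-sided permutation p, adjusted over the 3 comparisons, was 0.198, 0.0595 and 0.0595. A fit with this difference as a covariate is among the alternatives.

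One array stood apart in these genes, among others. In the liver of female control pup 4, all 10 members lay above the other 4 female control pups, where 18.5% of all 31042 probe sets did. Lcn2, which encodes the siderophore-binding protein lipocalin-2, was 11.83 in this animal and between 6.01 and 7.89 in the others, 35.5-fold above their mean. This was the largest excess among the 14217 genes. A2m was 7.92-fold above the mean of the others (rank 6) and Fgl1 4.02-fold (rank 14). Orm1, Serpina3n and Crp exceeded it by 1.09, 1.01 and 0.92 on the log2 scale, and Hp and the fibrinogen chains by 0.22 to 0.45. Differences of the members in female pups are therefore given with and without this animal.

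**Figure D1:**
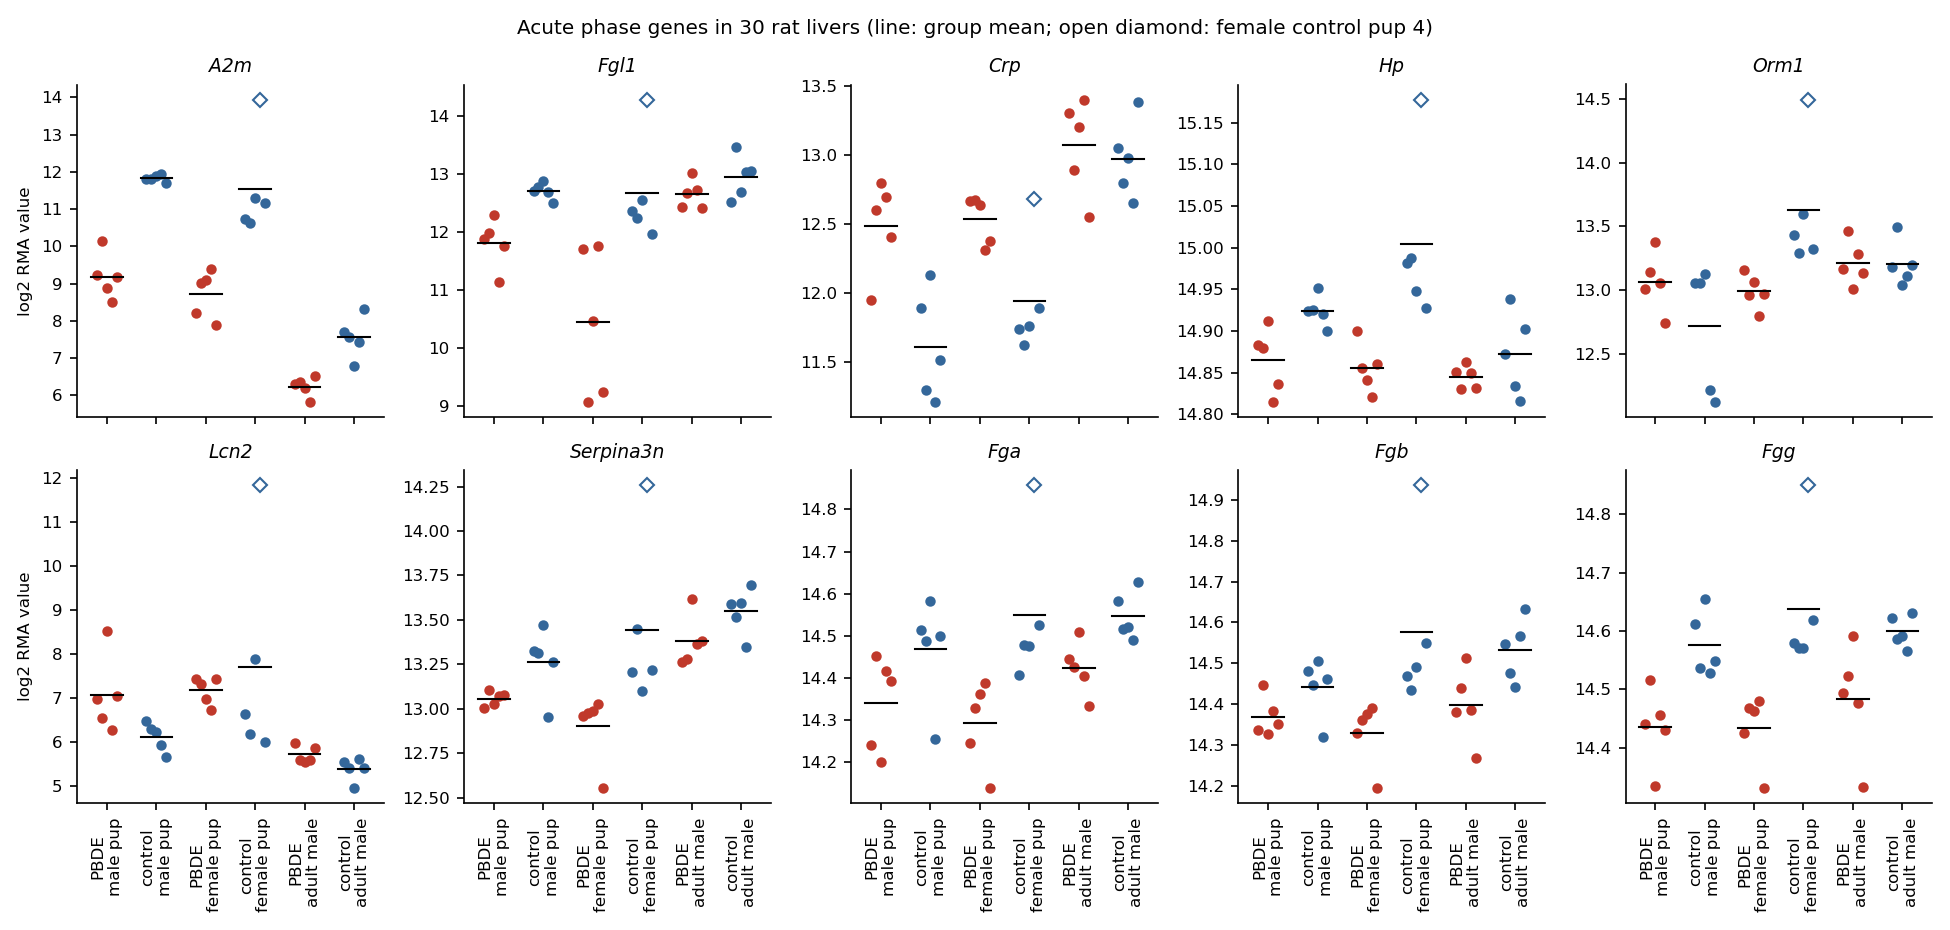
Log2 RMA values of the 10 genes on 30 arrays, 1 panel per gene, with PBDE groups in red left of their controls in blue and a line at each group mean. The open diamond is female control pup 4, which is the highest of its group in every panel, and A2m shows PBDE pups between 7.88 and 10.15 and control pups between 10.63 and 13.94.

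A2m had the largest PBDE difference of the 10 members in both pup sexes. It fell 6.26-fold in male pups and 7.13-fold in female pups, and in both sexes every PBDE pup lay below every control pup of its sex. In adults the level was already low, and the difference of 2.50-fold did not pass the test.

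A2m in male PBDE pups was 9.22, 10.15, 8.87, 8.51 and 9.17, against values in male control pups of 11.81, 11.80, 11.90, 11.95 and 11.69. The control pups were nearly alike (SD 0.10) and the exposed pups spread more widely (SD 0.61), with a gap of more than 1 log2 unit between the groups. The log2 difference was -2.65 ± 0.41 (SE; limma, adjusted p = 6.17e-05), with a 95% interval of -3.49 to -1.80.

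In female PBDE pups A2m was 8.21, 9.02, 9.10, 9.39 and 7.88, and in female control pups 10.74, 10.63, 11.29, 13.94 and 11.15. Pup 4 was the highest of all 30 arrays. Every control lay above every exposed pup, which leaving out pup 4 could not change. The log2 difference was -2.83 ± 0.41 (limma, adjusted p = 2.70e-05), and without pup 4 it was -2.24 ± 0.29 (adjusted p = 6.75e-06).

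In adult PBDE males A2m was 6.29, 6.36, 6.19, 5.81 and 6.51, and in adult control males 7.69, 7.56, 6.78, 7.43 and 8.31. Groups did not overlap, yet the log2 difference of -1.32 ± 0.41 missed the threshold of 0.05 (limma, adjusted p = 0.0753; range over the alternatives 0.00471 to 0.202). All groups share 1 estimate of the spread, and without female control pup 4 the same difference had an adjusted p of 0.00471. It was 0.0196 when the 2 adult groups were fitted alone.

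A2m also fell with age in both dose groups. Adult control males were at 7.55 ± 0.55 and male control pups at 11.83 ± 0.10, a log2 difference of -4.28 ± 0.41 or 19.4-fold (limma, adjusted p = 5.73e-09). PBDE adults were at 6.23 ± 0.26 and male PBDE pups at 9.18 ± 0.61, a difference of -2.95 ± 0.41 (adjusted p = 6.52e-06). The dose effect was smaller in adults by 1.32 ± 0.58, and this test of the difference itself did not pass (age by dose, adjusted p = 0.290). A batch shift shared by all arrays of a batch would cancel in that test but not in the 2 age differences.

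Ranked by mean, the order of A2m was male control pups, female control pups, male PBDE pups, female PBDE pups, adult control males and adult PBDE males. Within that order the male and female control pups (11.83 ± 0.10 and 11.55 ± 1.36; adjusted p = 0.922) did not differ beyond their spread. Nor did the male and female PBDE pups (9.18 ± 0.61 and 8.72 ± 0.64, adjusted p = 0.9995). The adult groups did not overlap, but their difference missed the threshold (limma, adjusted p = 0.0753). The dose effect differed between the sexes by 0.19 ± 0.58 (sex by dose, limma, adjusted p = 0.995), and by -0.41 ± 0.39 without female control pup 4.

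**Figure D2:**
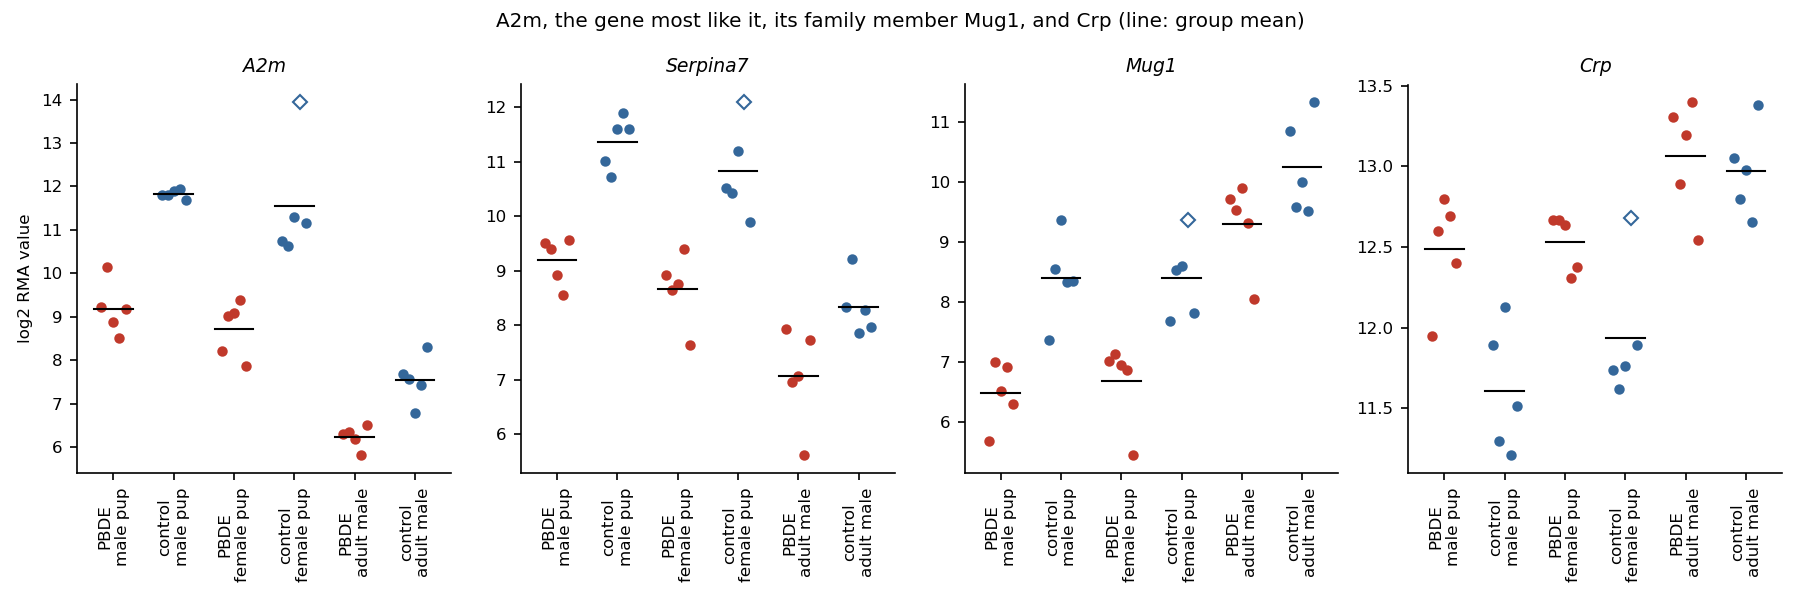
Log2 RMA values of A2m, Serpina7, Mug1 and Crp on 30 arrays, with PBDE groups in red left of their controls in blue, lines at group means and an open diamond for female control pup 4. A2m and Serpina7 run in the same order of groups, while Mug1 is high in adults and Crp is higher in PBDE than in most control pups.

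Fgl1, a fibrinogen-like protein secreted by hepatocytes and a ligand of the immune checkpoint receptor LAG-3, was low in PBDE pups. It fell 4.73-fold in female pups, where exposed animals varied widely. In male pups the groups did not overlap, but the difference missed the threshold of 0.01 used for pups.

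Fgl1 in female PBDE pups was 11.71, 9.06, 10.46, 11.75 and 9.23, and in female control pups 12.36, 12.25, 12.56, 14.29 and 11.96. Pups 2 and 5 of the exposed group were more than 2 log2 units below pups 1 and 4 of that group. The log2 difference was -2.24 ± 0.40 (limma, adjusted p = 4.42e-04), and -1.84 ± 0.37 without female control pup 4 (adjusted p = 0.00183). Its adjusted p was 0.0276 when the 2 groups were fitted alone, which ends the call.

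Fgl1 in male PBDE pups was 11.88, 11.98, 12.29, 11.14 and 11.76, against values in male control pups of 12.71, 12.78, 12.89, 12.69 and 12.50. All exposed pups lay below all control pups. The difference was -0.90 ± 0.40 (limma, adjusted p = 0.168), and 0.00507 was its adjusted p in a fit of these 2 groups alone. Adult PBDE males were at 12.66 ± 0.25 and adult control males at 12.95 ± 0.36, with overlapping groups (adjusted p = 0.785). Adult control males and male control pups differed by 0.24 ± 0.40 (adjusted p = 0.741; 95% interval -0.59 to 1.06).

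Crp, which encodes the pentraxin C-reactive protein, moved the other way. It rose 1.84-fold in male PBDE pups, and the same direction was seen in female pups. In adults the dose difference did not pass.

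In male PBDE pups Crp was 11.95, 12.60, 12.80, 12.69 and 12.40, and in male control pups 11.89, 11.30, 12.13, 11.21 and 11.52. Only PBDE pup 1 lay within the control range. The log2 difference was 0.88 ± 0.20 (limma, adjusted p = 0.00340). The call is a narrow one: the adjusted p was 0.0102 to 0.0142 without male PBDE pup 3 or 4 or without male control pup 2, 4 or 5, and 0.0122 when both groups were fitted alone.

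In female PBDE pups Crp was 12.67, 12.67, 12.64, 12.31 and 12.38, and in female control pups 11.74, 11.62, 11.76, 12.68 and 11.89. The exposed pups lay above 4 controls and below pup 4, which was the highest of the 10. The log2 difference was 0.59 ± 0.20 (limma, adjusted p = 0.0599). Without pup 4 it was 0.78 ± 0.19 and passed (adjusted p = 0.00794). With the Gapdh difference as a covariate it was 0.93 and also passed (adjusted p = 4.04e-04).

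Adult PBDE males averaged 13.07 ± 0.35 for Crp and adult control males 12.97 ± 0.28 (difference 0.10 ± 0.20; limma, adjusted p = 0.864). Adult control males exceeded male control pups by 1.36 ± 0.20 (adjusted p = 5.81e-06). In PBDE males the difference between adults and pups was 0.58 ± 0.20 (adjusted p = 0.0468). That call was lost under several settings, and was 0.11 with the Gapdh difference as a covariate (adjusted p = 0.781). The age by dose test gave -0.78 ± 0.28 (adjusted p = 0.162). Over the 30 arrays Crp ran opposite to A2m, with a Pearson correlation of -0.75 that mostly describes the group means. With group means removed their correlation was 0.38, and -0.01 without female control pup 4.

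Lcn2 passed in none of the dose comparisons. In male PBDE pups it was 6.99, 6.55, 8.52, 6.29 and 7.05, and in male control pups 6.48, 6.30, 6.23, 5.94 and 5.68. The groups overlapped, and the difference of 0.96 ± 0.62 did not pass (limma, adjusted p = 0.383; 0.0409 without female control pup 4, still above 0.01). In female PBDE pups it was 7.43, 7.33, 6.98, 6.73 and 7.44, a mean of 7.18 ± 0.32. The difference to female control pups was -0.53 ± 0.62 with pup 4 (adjusted p = 0.711) and 0.50 ± 0.32 without it (adjusted p = 0.454). The sign of the Lcn2 difference in females thus rested on 1 animal. Adult PBDE males (5.73 ± 0.19) and adult control males (5.40 ± 0.26) were near the array median.

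The remaining 6 members, Hp, Orm1, Serpina3n and the 3 fibrinogen chains, gave small differences with PBDE, all from levels near the top of the scale. Haptoglobin, encoded by Hp, binds free haemoglobin; Orm1 encodes alpha-1-acid glycoprotein; Serpina3n encodes a serine protease inhibitor. The fibrinogen chains form the clotting protein and lie next to each other on chromosome 2, with 0 coding genes between Fgg and Fga and 0 between Fga and Fgb.

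In female pups all 6 lay lower in every PBDE animal than in any control, yet none passed the threshold of 0.01. Serpina3n came nearest, at 12.96, 12.98, 12.99, 13.03 and 12.56 in PBDE pups, against 13.21, 13.45, 13.10, 14.26 and 13.22 in control pups. Its difference was -0.54 ± 0.14 (limma, adjusted p = 0.0132), and -0.34 ± 0.10 without pup 4 (adjusted p = 0.0347). Those of the other 5 ran from -0.64 for Orm1 to -0.15 for Hp (adjusted p 0.0252 to 0.0540). Pup 4 was the highest control for all 6, so leaving it out could not make the groups overlap. Without pup 4, Orm1 differed by -0.42 (adjusted p = 0.141), Fga by -0.18 (0.135), Fgb by -0.16 (0.131), Fgg by -0.15 (0.107) and Hp by -0.11. With a filter on low values, which leaves fewer probe sets to adjust over, Serpina3n passed (adjusted p = 0.00887).

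In male pups Fgg lay lower in all PBDE animals, at 14.44, 14.52, 14.34, 14.46 and 14.43, than in controls, at 14.61, 14.54, 14.66, 14.53 and 14.55. The difference was -0.14 ± 0.06 (limma, adjusted p = 0.133). Hp, Serpina3n, Fga and Fgb differed by -0.06 to -0.21, with overlapping groups. Orm1 differed by +0.35 ± 0.19 (adjusted p = 0.278): PBDE pups lay between 12.74 and 13.37, control pups between 12.12 and 13.12. Control pups 4 and 5, at 12.22 and 12.12, lay apart from the other controls, at 13.05 to 13.12. In adults none of the 6 differences exceeded 0.17 in size, and adjusted p was 0.328 or more.

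The second probe set of Fga gave a larger response than the representative. Its mean over 30 arrays was 12.62, against 14.44 for the representative, and its PBDE differences were -0.35 in male pups, -0.81 in female pups and -0.46 in adults, against -0.13, -0.26 and -0.12. Female control pup 4 exceeded the other 4 controls by 1.33 on this probe set and by 0.39 on the representative. Without pup 4 the female difference on the second probe set was -0.54 (limma, adjusted p = 0.0428), against -0.18 on the representative. Both probe sets gave the same direction in all 3 comparisons and differed in size, and the part of signal height in this was not tested. The other probe sets of Fgb averaged 5.55 and 3.63, at or below the array medians. The PBDE differences on the first were 0.18 in male pups, 0.12 in female pups and 0.08 in adults. Those on the second were 0.02, 0.05 and -0.21. The representative of Fgb gave -0.07, -0.25 and -0.14, so the direction differed in pups on both probe sets, and in adults on the first. None of these differences passed.

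**Figure D3:**
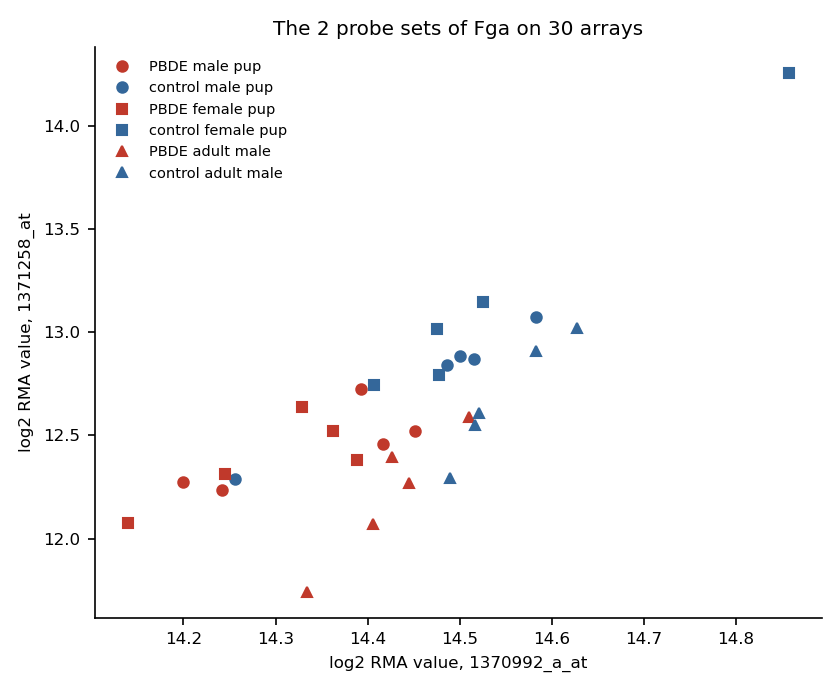
The 2 probe sets of Fga plotted against each other on 30 arrays, both axes in log2 RMA values, red for PBDE and blue for control, with 1 marker shape per age and sex. Female control pup 4 is the isolated point at 14.86 and 14.25, and the vertical axis spans a wider range than the horizontal one.

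Counted over the 10 members, 1 rose (Crp) and 1 fell (A2m) in male pups, where 2.89% of all 31042 probe sets rose and 2.44% fell at the same threshold of 0.01. Groups did not overlap for 3 members, all lower in PBDE (A2m, Fgl1 and Fgg), against 4.10% of probe sets lower and 4.73% higher. The median difference of the members was -0.10, and that of all probe sets 0.01.

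In female pups 2 members fell (A2m and Fgl1) and 0 rose, against 1.68% and 2.55% of probe sets (limma; 9 members had an unadjusted p under 0.05). Probe sets under that unadjusted threshold were not counted, here or below, so such counts of members have no share beside them. Groups did not overlap for 8 members, all lower in PBDE, where 3.80% of probe sets were lower and 4.41% higher. Without pup 4, 2 fell and 1 rose (Crp), against 1.49% and 1.94% of probe sets. Then 8 members were lower and 1 higher with no overlap, against 5.24% and 5.13%. The 8 lower members were the same as with pup 4. It was the highest control of each, so its removal could not make them overlap. The median difference was -0.39, and -0.17 without pup 4.

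In adult males 0 members passed the threshold of 0.05 (limma; 1 had an unadjusted p under 0.05), against 2.98% of probe sets. A2m was the 1 member whose groups did not overlap, lower in PBDE as were 1.77% of probe sets. Without female control pup 4, A2m was called, as were 1.76% of probe sets in that direction, and it was also called with the adult groups fitted alone.

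**Figure D4:**
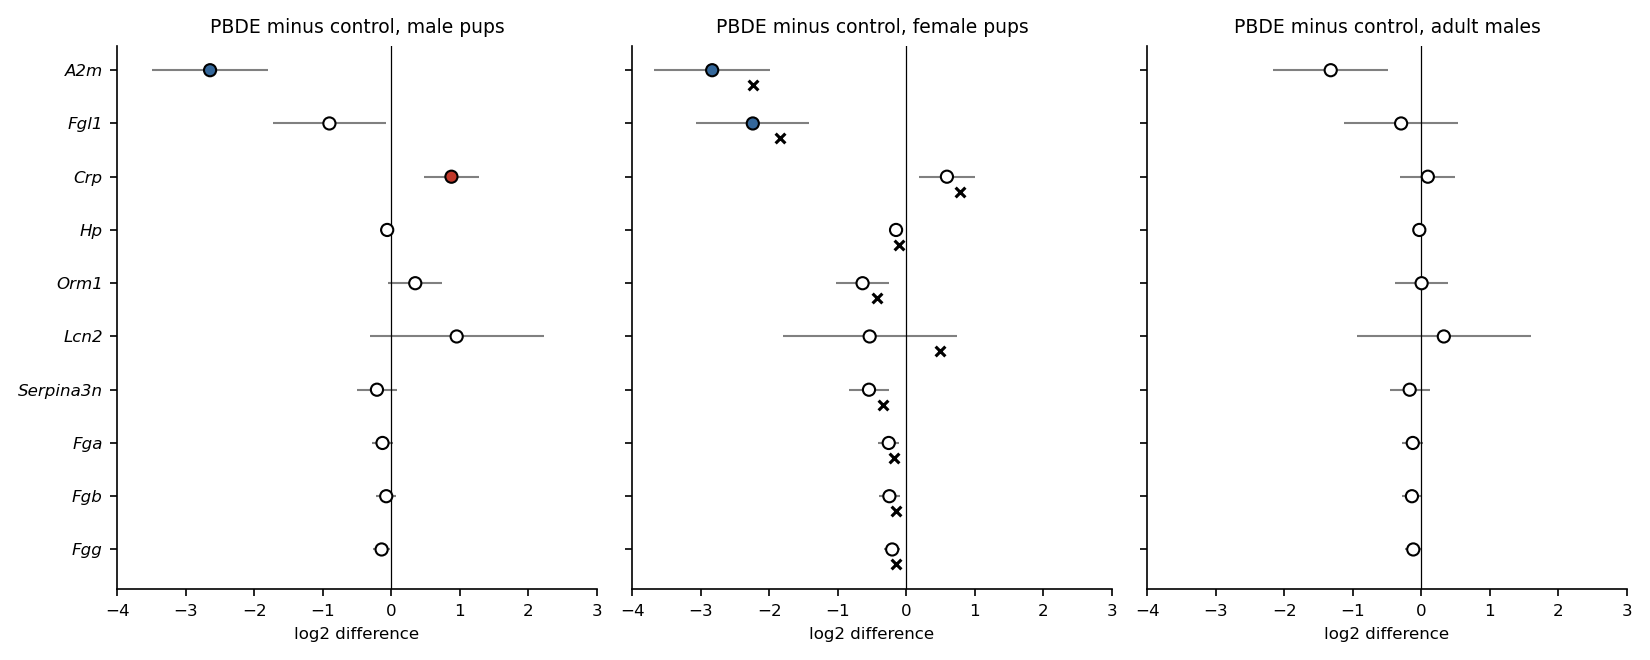
PBDE minus control differences on the log2 scale for the 10 genes in male pups, female pups and adult males, with 95% intervals from the fit to all arrays; filled points passed the threshold, blue for lower and red for higher in PBDE. Crosses in the middle panel give the difference without female control pup 4, which is nearer to 0 for A2m (-2.24) and Fgl1 (-1.84) and farther from it for Crp (0.78).

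Between sexes, 0 members passed in PBDE pups and 0 in control pups (limma; 1 and 2 had an unadjusted p under 0.05), where 0.0451% and 0.0354% of probe sets passed. In PBDE pups, batch and sex cannot be told apart. Orm1 came nearest, lower in male control pups (12.71 ± 0.50) than in female control pups (13.63 ± 0.50). The difference was -0.91 ± 0.19 (limma, adjusted p = 0.0497), and -0.70 ± 0.17 without female control pup 4 (adjusted p = 0.118). Male control pups 4 and 5 were at 12.22 and 12.12, and the other male control pups at 13.05 to 13.12. For sex by dose 0 members passed, as did 0.00% of probe sets (2 had an unadjusted p under 0.05). The interaction was positive for all 10 members, with a median of 0.24. Without female control pup 4, which lay high in all 10, it was positive for 9 and negative for A2m, with a median of 0.09. No sign share or median of all probe sets was taken for this term, and members that vary together are not 10 separate results. Of its groups only female PBDE pups lie in the second batch, so a batch shift cannot be told apart from this interaction. For age by dose 0 members passed, against 1.87% of probe sets (2 had an unadjusted p under 0.05).

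Between ages, 1 member rose (Crp) and 1 fell (A2m) in control males, against 10.3% and 12.7% of probe sets, and likewise in PBDE males, against 5.35% and 8.70%. Without female control pup 4, when 10.4% of probe sets rose and 12.8% fell, Orm1 and Serpina3n also passed in control males, with adult minus pup differences of 0.49 (adjusted p = 0.0216) and 0.28 (adjusted p = 0.0293). In PBDE males Serpina3n (0.32; adjusted p = 0.0195) and Lcn2 (-1.35; adjusted p = 0.00254) then passed, against 5.43% and 8.82%. The fibrinogen chains and Hp stayed within 0.10 of 0 in both age comparisons.

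On the array of female control pup 4, other acute phase genes were high as well. Of 14 other positive acute phase proteins, 10 lay above the other 4 control pups, with a median excess of 0.40. Lbp, the lipopolysaccharide-binding protein, exceeded them by 1.95 and Hamp, the iron hormone hepcidin, by 1.14. Of 9 negative acute phase proteins, which fall in inflammation, 5 lay below the other 4 controls, where 25.1% of all probe sets did, among them Ttr by -0.09 and Serpina6 by -0.43, while Serpina7 lay above by 1.58. Of 24 genes of signalling and transcription, 9 lay above and 5 below the other 4 controls, with a median excess of 0.06. Il6, Tnf and Il6r were at -0.03, -0.04 and -0.30. Il1r1 was higher by 1.79, Il1b by 1.00, Socs3, a STAT3-induced feedback inhibitor, by 0.97 and Stat3 by 0.90, and Cebpa was lower by 0.82.

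Markers of other cells moved in the same array. All 10 Kupffer cell and macrophage markers lay above the other 4 control pups, with a median excess of 0.77 and an array mean of 9.91. The myeloid calprotectin genes S100a8 and S100a9 were higher by 3.84 and 3.50, while the neutrophil markers Camp, Cxcr2 and Csf3r exceeded the others by 0.21 or less. Other large excesses were those of Wfdc21 (4.26), the chemokine Cxcl1 (3.44) and the growth factor Gas6 (2.72). Lymphocyte markers had a median excess of 0.05, and hepatocyte markers centred on 0. On this array 157 probe sets lay over 2-fold above the rest of its group, against 30 to 73 on each of the other 4. Some arrays of other groups had more, such as adult PBDE male 5 with 191 and male control pup 2 with 182. Its correlation with the rest over all probe sets was 0.994, and its Gapdh difference of 0.75 was the lowest of the group. The part of these cells in the high values was not tested.

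**Figure D5:**
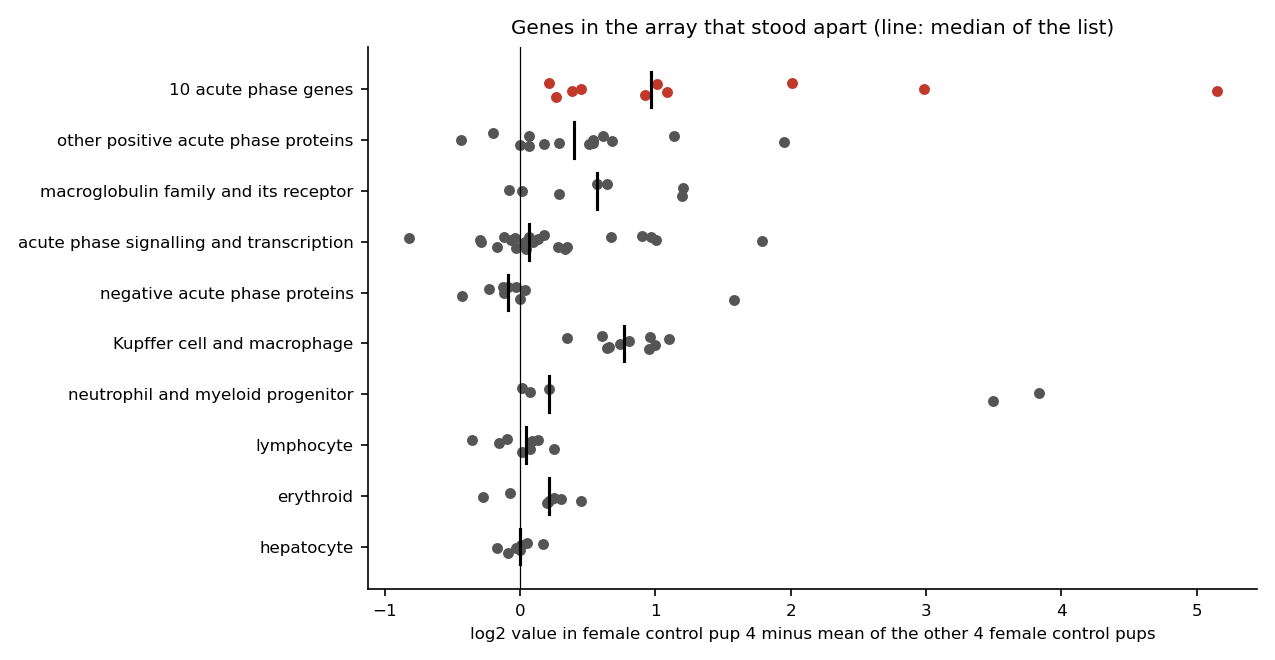
Log2 value in female control pup 4 minus the mean of the other 4 female control pups, 1 point per gene, for the 10 acute phase genes and 9 other lists, with a line at each list's median. The 10 genes all lie right of 0, up to 5.15 for Lcn2, as do all 10 Kupffer cell markers, while hepatocyte and lymphocyte markers centre on 0.

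How the members varied together differed with and without this animal. Departures from group means, over 30 arrays, correlated with a median r of 0.57 over the 45 pairs of members, and of 0.23 without pup 4. The 3 fibrinogen chains remained together, with r of 0.86 to 0.89 over 30 arrays and 0.78 to 0.82 without pup 4. Pairs with A2m had a median r of 0.66, and 0.23 without it, and pairs with Lcn2 of 0.61, and -0.03 without it. The arrays share groups and platform, so these values are descriptive.

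Of the genes outside the 10, Serpina7 was most like A2m over the 30 arrays (Pearson r = 0.95, and 0.94 without pup 4). It encodes thyroxine-binding globulin, a carrier of thyroid hormone in plasma. Serpina7 averaged 9.19 ± 0.44 in male PBDE pups, against 11.37 ± 0.49 in male control pups, a difference of -2.18 (limma, adjusted p = 3.15e-04). In female PBDE pups it averaged 8.67 ± 0.65 and in female control pups 10.82 ± 0.85, a difference of -2.15 (adjusted p = 4.29e-04), and of -1.84 without pup 4 (adjusted p = 0.00212). In adult PBDE males it was 7.06 ± 0.91 and in adult control males 8.33 ± 0.53, and the difference of -1.27 did not pass (adjusted p = 0.0696). Next in likeness came Naprt, an enzyme of NAD synthesis (r = 0.93), Edil3, a secreted matrix protein (0.92), the disulfide-forming enzyme Qsox1 (0.92) and the dicarboxylate transporter Slc13a3 (0.92). These correlations over all arrays, that of Serpina7 included, mostly describe the group means, and other genes led once those were removed. Over departures from group means the most alike were Gas6 (0.77), Mturn (0.76), Defa5 (0.76), Trps1 (0.73) and S100a8 (0.73), and without pup 4 these values were between 0.17 and 0.58.

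Of all probe sets, 2.89% rose and 2.44% fell in male pups, and 2.55% rose and 1.68% fell in female pups. In adults 2.98% passed in either direction. The counts for the gene lists from here on stand beside these shares. In the list of the macroglobulin family and its receptor, 1 of 7 measured genes fell in male pups and 1 in female pups. In both this was Mug1, which encodes a murinoglobulin. It lies on chromosome 4 near A2m, with 1 coding gene between them. Mug1 averaged 6.49 ± 0.53 in male PBDE pups, against 8.39 ± 0.71 in male control pups, a difference of -1.90 (limma, adjusted p = 0.00200). In female PBDE pups it averaged 6.69 ± 0.70 and in female control pups 8.41 ± 0.68, a difference of -1.72 (adjusted p = 0.00575). Without pup 4 the female difference of Mug1 was -1.48 ± 0.41 and did not pass (adjusted p = 0.0256). With age Mug1 ran opposite to A2m, at 9.30 ± 0.73 in adult PBDE males and 10.25 ± 0.80 in adult control males, a dose difference that did not pass (-0.95; adjusted p = 0.220). Its relatives are close in sequence, so probes may be shared among them. Pzp, next in the family, differed by -0.16 and -0.38 in male and female pups and did not pass.

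Of 14 other positive acute phase proteins, few passed with PBDE. In male pups Cd14, the co-receptor for lipopolysaccharide, rose (0.63; limma, adjusted p = 0.00316) and Itih3, an inter-alpha-inhibitor heavy chain, fell (-0.25; adjusted p = 0.00307). In female pups Itih3 (-0.40; adjusted p = 1.27e-05) and the complement regulator C4bpa (-0.44; adjusted p = 0.00424) fell and 0 rose. Both still fell without pup 4 (Itih3 -0.39, C4bpa -0.30; adjusted p = 6.98e-05 and 0.00959). In adults 0 of 14 passed. Hamp had the largest difference of the list in male pups and was lower in all 3 comparisons without passing, at -0.87 in male pups (adjusted p = 0.117), -0.63 in female pups (0.330) and -0.60 in adults (0.416). Median differences of the list were -0.06, -0.15 and -0.03 in male pups, female pups and adults, and -0.09 in female pups without pup 4.

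Of 9 negative acute phase proteins, Serpina7 fell in both sexes of pups. Serpina6, corticosteroid-binding globulin, rose in female pups (0.54; limma, adjusted p = 0.00801), and did not pass without pup 4 (0.45; adjusted p = 0.0350). In adults 0 passed, and 1 fell without female control pup 4. Median differences were -0.05, 0.00 and -0.07.

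Among 24 genes of acute phase signalling and transcription, 0 passed in male pups and in adults; in male pups Tyk2 was at -0.32 (limma, adjusted p = 0.0105). In female pups Cebpb rose (0.58; adjusted p = 0.00266) and the cytokine receptor kinase Tyk2 fell (-0.46; adjusted p = 4.47e-04). Without pup 4 these were 0.63 for Cebpb and -0.48 for Tyk2, and both passed. In that fit 1 gene of the list rose and 1 fell in male pups, and 1 fell in adults. Stat3 was at -0.25 in male pups (adjusted p = 0.357) and -0.55 in female pups (adjusted p = 0.0252), and at -0.37 there without pup 4 (adjusted p = 0.108). The interleukin-6 receptor Il6r was at -0.41 in male pups (adjusted p = 0.0103), just short of the threshold of 0.01.

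Of 8 glucocorticoid targets, 3 fell in male pups, 1 in female pups and 1 in adults, and 0 rose. Of all probe sets, 2.44% fell in male pups and 1.68% in female pups, and 2.98% passed in either direction in adults. The kinase Sgk1 (-1.85; limma, adjusted p = 2.08e-04), the receptor co-chaperone Fkbp5 (-0.85; adjusted p = 7.29e-05) and Tsc22d3, the leucine zipper GILZ (-0.75; adjusted p = 2.92e-04), fell in male pups. Fkbp5 also fell in female pups (-0.70; adjusted p = 8.50e-04; -0.66 without pup 4), and the phosphatase Dusp1 fell in adults (-1.57; adjusted p = 0.00567). The list's median differences were -0.72, -0.60 and -0.12 in male pups, female pups and adults, and -0.54 in female pups without pup 4, against 0.01, 0.00 and 0.01 for all probe sets.

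Of 9 genes of fetal and newborn liver, the imprinted RNA H19 and the binding protein Igfbp2 fell in both pup sexes. The H19 difference was -3.74 in male and -2.54 in female pups, and that of Igfbp2 was -2.37 and -1.33. Without pup 4 the female differences were -2.57 for H19 and -1.45 for Igfbp2. In adults 0 passed. Median differences of the list were -0.22, 0.09 and -0.15 in male pups, female pups and adults, and 0.13 in female pups without pup 4. Afp, the fetal serum protein, did not pass in any comparison (-0.32 in male pups; limma, adjusted p = 0.720).

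Markers of other cells moved with dose in some groups. Of 10 Kupffer cell and macrophage markers, 2 fell in male pups (C1qa and Aif1), 0 in female pups and 1 in adults (Aif1), with median differences of -0.36, -0.20 and -0.41, and of -0.04 in female pups without pup 4. Their array means ran from 8.70 to 8.90 in male PBDE pups against 9.08 to 9.35 in male control pups. They ran from 8.78 to 9.20 in female PBDE pups against 8.80 to 9.91 in female control pups, where the highest was pup 4, and from 8.41 to 9.13 in adult PBDE males against 8.90 to 9.57 in adult control males. Of 5 endothelial markers 2 fell in male pups, with a median of -0.47. Of 7 hepatocyte markers the urea cycle enzyme Cps1 fell in both pup sexes (-0.29 and -0.31), in females not without pup 4. Erythroid markers had a median difference of 0.65 in female pups, where 0 of 7 passed. The part of these shifts in the results for the members was not tested.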

How the data were processed

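Liver RNA of 30 rats was measured on Affymetrix rat expression arrays. The authors deposited log2 values; RMA is named in the submitters' processing notes, and its software is not given in the sources used here. There were 31099 probe sets in the table and 0 unused value columns. Of these, 57 control probe sets were kept for quality measures. By the platform annotation 20826 probe sets had 1 gene, 436 had several and 9780 had none, and only those of 1 gene were named. The number of arrays limits the precision.

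Groups came from the labels. limma 3.58.1 (R 4.3.3) fitted 6 group means over the 30 arrays, followed by eBayes and Benjamini-Hochberg adjustment over 31042 probe sets. The false discovery rate followed the series design, 0.01 for pups and 0.05 for adults; age comparisons and age by dose used 0.05. The design names the authors' tool as R/maanova. The fit was tested on simulated data. Gapdh differences were compared by exact permutation over 5 against 5 arrays, whose smallest possible p is 0.00794. Each group lay in 1 array batch, so no batch term could be fitted. Replicate numbers name no shared dam and were not taken as pairs.

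Genes named are the 10 members, the 5 genes most like A2m by each of 2 correlations, and up to 4 genes with the largest changes among those past the threshold in each of 6 pathway lists. The genes named for female control pup 4, the values named below the threshold and the markers were chosen after their values were seen. Members and lists were chosen with earlier results of these data known. Alternatives were the compared groups alone, a filter on low values, trended robust or no shrinkage, renormalization, means over probe sets, a Gapdh covariate, a replicate block, other false discovery rates and leaving out each array. Those without female control pup 4 in comparisons that do not hold it were chosen after seeing the data. Promoters are from RefSeq on GRCr8.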

Additional observations from a re-analysis of the deposited data

Results flagged for a closer look

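In groups of 5, an animal was singled out when its gap to the nearest other animal exceeded 0.71 of the group's whole range, Dixon's 95% value, which chance gives in about 1 of 20 groups. Of 60 groups (10 genes in 6 groups), 9 held such an animal, and 8 of these were female control pup 4, so they are not independent. This pup was the highest of its group for A2m (13.94), Fgl1 (14.29), Crp (12.68), Hp (15.18), Orm1 (14.50), Fga (14.86), Fgb (14.94) and Fgg (14.85). The ninth was Serpina3n in female PBDE pup 5, the lowest of its group at 12.56, where the others lay between 12.96 and 13.03.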

How the results depend on the processing

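No single-gene call reversed its direction under an alternative: of 1970 values, 1865 kept direction and side of the threshold, 57 uncalled values changed sign, 20 lost a call and 28 gained one. The fall of A2m in pups passed in all alternatives (adjusted p at most 3.84e-04 in male and 0.00599 in female pups). In female pups the count of members past the threshold, 2, was 1 with the compared groups alone, 4 with no shrinkage and 7 at a false discovery rate of 0.05; Crp was also called there with the Gapdh covariate (0.93, against 0.59) and Serpina3n with the filter on low values (adjusted p = 0.00887). In adult males the count of 0 was 1 with the compared groups alone (A2m). Between sexes in control pups it was 1 at a rate of 0.05 (Orm1), and for age by dose 1 with the Gapdh covariate (Crp, -0.75). For age in PBDE males the count of 2 was 4 with the compared groups alone, and 1 with trended robust shrinkage, no shrinkage, the Gapdh covariate, the replicate block and a rate of 0.01. Leaving out 1 array gave 1 to 2 members in male pups, 2 to 3 in female pups, 0 to 1 in adults, 2 to 4 for age in control males and 1 to 4 for age in PBDE males, and 0 for sex and both interactions; the count of 3 in female pups came without female control pup 3 (Serpina3n) or 4 (Crp), and those of 1 in adults and 4 for age came without female control pup 4. Same-numbered animals of different groups did not deviate together (mean r 0.00417, against -9.06e-04 for other pairs, with 18 of 75 over 0.1). Every group holds the same replicate numbers, so the replicate block cannot change a difference, only its p. The block ended only the Crp call for age in PBDE males (limma, adjusted p = 0.0556). The cause of these changes was not tested, and 5 arrays per group limit all of them.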
